A study of Mus musculus with 24 samples.

Results

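The 38 genes described here encode ATF4 and the stress effectors it is known to act through (7 genes), enzymes of asparagine, serine and one-carbon synthesis (8 genes), amino acid transporters (5 genes) and the cytosolic aminoacyl-tRNA synthetases (18 genes). They were chosen by gene name, a rule that used no level from these libraries. All 38 were found among the 45237 genes of the table, 37 of them under the symbol given here and Mars1 under its older symbol Mars. The genes were measured by RNA-seq in natural killer (NK) cells sorted from the spleen of wild-type C57BL/6J mice, to ask how tumor growth changes the NK cell transcriptome over time. Tumor-bearing mice had received RMA cells intravenously, a mouse T cell lymphoma line that NK cells largely ignore, or RMA-KR cells. RMA-KR is 1 clone, derived from RMA by knockout of B2m, so that it lacks surface MHC-I, and by transduction with the NKG2D ligand Rae1-β. Per the study, both lines express the fluorescent protein ZsGreen. The 24 libraries fall into 7 groups: untreated control mice (n = 4), RMA early (day 2, n = 3), RMA intermediate (day 4, n = 3), RMA late (day 9, n = 3), RMA-KR early (day 2, n = 3), RMA-KR intermediate (day 7, n = 5) and RMA-KR late (day 14, n = 3). Only the early stage was sampled on the same day in both models, so that tumor line and day cannot be told apart in comparisons of the intermediate or late stages. No group received another cell line or a mock injection, so the injection itself and the tumor cannot be told apart either.

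ATF4 is a transcription factor whose protein is made when phosphorylation of eIF2α slows general translation, which happens when amino acids run short or unfolded proteins accumulate in the endoplasmic reticulum, and mTORC1 raises it by a separate route in growing cells. Its known targets supply the substrates of protein and nucleotide synthesis: enzymes that build serine from glycolytic intermediates and pass its carbon to folate, transporters that import amino acids, and synthetases that load amino acids onto tRNA. Stimulated lymphocytes are known to raise many of these genes as they grow, and ATF4 activity is set mainly by translation of its mRNA, which transcript counts do not show.

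The libraries held 5138651 to 14863500 counted reads each (median 10489204), and the 38 genes together took between 0.361% and 0.597% of them. Values below are normalized CPM, that is, a gene's count relative to its library total after scaling by the trimmed mean of M values (TMM). The 10 NK cell marker genes were all detected in every group, with a summed level of 18321 to 36361 normalized CPM. Among 12 T cell markers, which also mark RMA cells, Cd3e did not exceed 5.00 and Cd4 and Cd8a were at 0 in 17 and 18 of 24 libraries, and the summed level (431 to 850) came mainly from Trbc1, Trbc2, Cd28 and Lef1. This T cell sum was 516 to 639 in control, 431 to 494 in RMA intermediate and 643 to 766 in RMA late. RMA intermediate thus lay below control and RMA late above it, and the part of this in the RMA results was not tested. The 8 B cell markers summed to at most 54.5, the 9 granulocyte markers to at most 12.4, the 8 red blood cell markers to at most 3.97 and the 10 macrophage and monocyte markers to at most 80.4. The macrophage and monocyte sum was 8.74 to 18.9 in control and 29.3 to 32.1 in RMA-KR early. It was 34.2 to 52.5 in RMA late and 44.2 to 80.4 in RMA-KR late. RMA-KR early and both late groups thus lay above control. The part of this shift in their results, that of Atf4 in RMA-KR early among them, was not tested. Of the 8 plasma cell markers, which summed to 213 to 688 (236 to 392 in control and 404 to 688 in RMA-KR late) and came mainly from Ighm, Mzb1 and Sdc1 were at 0 in 20 and 15 libraries. A set of 4 libraries stood apart. In control 4 and RMA-KR intermediate 3, 4 and 5, a list of 12 immediate early and heat shock genes, such as Fos, Jun and Junb, summed to 1324 to 1451 normalized CPM, against 4463 to 9996 in the other 20 libraries. Within the list, Hspa1a and Hspa1b were at 0 in 11 and 20 libraries. Such genes respond to cell handling, but no label says that these 4 libraries were handled differently. The name handling stress genes thus stands for the list alone, and the source of the difference is unknown. Among the other 20 libraries the sum over the list was 4882 to 5247 in RMA intermediate and 4463 to 5647 in RMA late, below controls 1 to 3 (7160 to 8693), both early groups (6401 to 9476) and RMA-KR late (6430 to 7968), and the part of this shift in the RMA results was not tested. The same 4 libraries had a summed NK marker level of 18321 to 22547, against 22974 to 36361 in the other 20, and a summed B cell marker level of 30.8 to 54.5, against 0.309 to 42.4 with a median of 6.28. The part of this difference in any result was not tested beyond refitting without the 4 libraries or with a term for them, and those values are given beside the calls and the enzyme levels that moved with it.

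Sequence upstream of the genes was read from RefSeq promoter entries on GRCm38.p6, which matched 29 of the 38 genes. The C/EBP-ATF response element is the composite site through which ATF4 acts with C/EBP family partners, and its core was searched as TGATGNAA on both strands in the 250 bases before each start. It was present in 6 of the 29 genes (20.7%), against 1056 of the 27025 genes that have such an entry (3.91%). Stretches of some of them are shown because their letters match the known element of the factor this gene group is named for. Binding at these stretches was not measured here. Each has 30 bases, the element core is in capitals, and all are written so that the core reads TGATGNAA.
Gars: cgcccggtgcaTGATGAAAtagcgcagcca
Tars: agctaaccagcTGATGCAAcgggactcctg
Asns: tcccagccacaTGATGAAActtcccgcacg
Chac1: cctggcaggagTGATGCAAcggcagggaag
Slc7a11, distal: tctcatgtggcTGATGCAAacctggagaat
Slc7a11, proximal: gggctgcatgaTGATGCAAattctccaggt
On GRCm38.p6 these lie at chr6:55037960-55037989 (minus strand) for Gars, chr15:11399655-11399684 (plus) for Tars, chr6:7693214-7693243 (minus) for Asns, chr2:119351038-119351067 (minus) for Chac1, and chr3:50443661-50443690 (minus) and chr3:50443642-50443671 (plus) for Slc7a11. In the GENCODE M21 annotation of the same build, the stretches of Gars, Chac1 and Slc7a11 overlap no annotated gene, whereas those of Tars and Asns overlap an annotated exon of the same gene. The E-box CACGTG, the site of Myc and related factors, was present in 2 of the 29 genes (6.90%, against 6.86% of all genes). The upstream windows of Psat1, Phgdh, Mthfd1 and Mthfd2 held neither set of letters, which says nothing beyond these windows.

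Groups were compared in a single edgeR fit of the 24 libraries over the 17097 genes that passed a filter on low counts, by quasi-likelihood tests whose p-values were adjusted across all 17097 by the Benjamini-Hochberg method. The study counts its late groups in mice, but the labels do not say for every stage that each library came from a mouse of its own, and the p-values measure the spread between these samples. Of the 38 genes, 37 passed the filter. Chac1, an enzyme that degrades glutathione, did not, with 11 counts in RMA-KR early 1 and 0 in the other 23 libraries.

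Of the 37 genes, 4 of the serine and one-carbon enzymes and 2 synthetases rose in RMA-bearing mice, and Atf4 fell in RMA-KR-bearing mice on day 2. In RMA intermediate against control, 6 of 37 genes rose at an adjusted p under 0.05 (Psat1, Phgdh, Mthfd1, Mthfd2, Gars and Aars) and none fell, where 1.85% of all genes tested rose and 0.491% fell. At an unadjusted p under 0.05 there were 18 of 37, against 15.9% of all genes tested. In RMA late against control, 3 rose (Psat1, Phgdh and Mthfd2) and none fell, where 2.14% of all genes tested rose and 0.521% fell, and 11 passed an unadjusted p under 0.05 (14% of all genes tested). In RMA-KR early against control, 1 gene, Atf4 itself, fell and none rose, where 0.0994% of all genes tested fell and 0% rose, and 10 passed an unadjusted p under 0.05 (8.71% of all genes tested). No gene was called in RMA early, RMA-KR intermediate or RMA-KR late against control. The share of all genes tested that was called in either direction was 0% in RMA early, 0.0175% in RMA-KR intermediate and 1.22% in RMA-KR late. At an unadjusted p under 0.05 the counts of the 37 genes were 1 in RMA early, 14 in RMA-KR intermediate and 13 in RMA-KR late, against 7.04%, 5.91% and 14.2% of all genes tested, and DESeq2 called 0, 2 (Psat1 and Phgdh) and 3 (Psat1, Aars and Atf4), respectively. Of 45237 genes, DESeq2 called 76, 41 and 663 in the same order.

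From the intermediate stage on, more of the 37 genes lay above control than below it. In RMA intermediate the median log2 fold change against control over the 37 genes was 0.57 (31 above 0), where the median over all genes tested was −0.29. It was 0.35 in RMA late (28 above 0), 0.30 in RMA-KR intermediate (28 above 0) and 0.35 in RMA-KR late (27 above 0), where all genes tested had medians of −0.18, 0.01 and −0.18. The median over all genes lay nearer 0 among the 7800 genes that reached 10 counts in each of the libraries, at −0.044 in RMA intermediate, −0.048 in RMA late and −0.013 in RMA-KR late. In RMA intermediate, 19 of the 37 genes did not overlap with control, 16 higher and 3 lower, where 20.7% of all genes tested did not overlap. In RMA late it was 14 genes (11 higher), where 18% of all genes tested did not overlap. These 4 comparisons share the control libraries, so their values are set side by side and are not independent of each other.

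**Figure D1:**
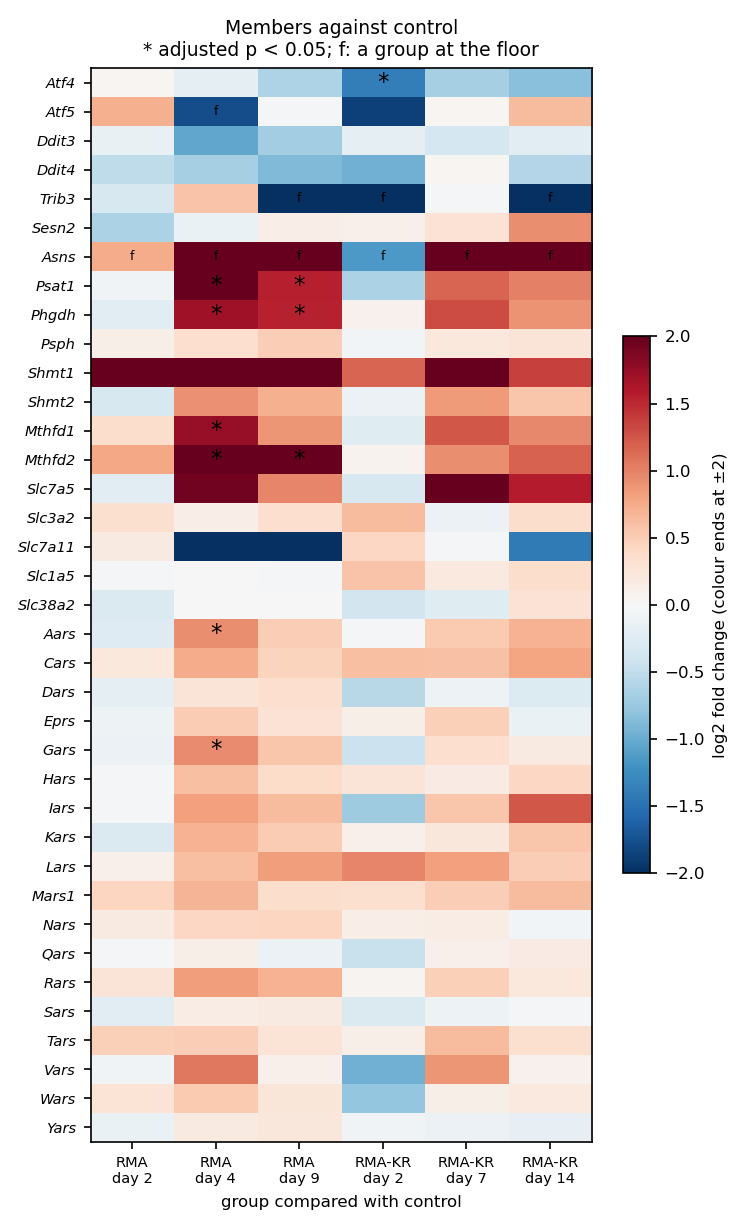
Log2 fold change against control for the 37 genes tested (rows) in the 6 tumor groups (columns), with red for higher and blue for lower; the color scale ends at −2 and 2, asterisks mark an adjusted p under 0.05 by edgeR's quasi-likelihood test, and f marks a comparison in which a group had at most 3 counts in every library. The asterisks sit on Psat1, Phgdh, Mthfd1, Mthfd2, Aars and Gars in the RMA columns and on Atf4 in RMA-KR at day 2.

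Atf4 mRNA, of the transcription factor itself (chr15:80255184-80257541, GRCm38), was among the most abundant transcripts of the set, at a mean of 93.4 normalized CPM per kilobase of exon over all libraries, against 84.8 for Slc3a2 and 68.4 for Gars. In control 1 to 4 it had 266, 350, 375 and 206 normalized CPM. In RMA-KR early it had 122, 106 and 118, and of the other 21 libraries only RMA late 1, at 121, was as low. The log2 fold change of RMA-KR early against control was −1.38 ± 0.24 (SE; adjusted p = 0.0265, edgeR's quasi-likelihood test), and all 3 libraries lay below all 4 controls. In RMA early, sampled on the same day 2, the levels were 245, 381 and 295, overlapping with control (log2 fold change 0.04 ± 0.23). Atf4 also differed between the tumors on day 2, with RMA early above RMA-KR early by 1.41 ± 0.25 (log2, adjusted p = 0.0187, edgeR), and the 2 groups did not overlap. In that comparison 1 of 37 genes was called higher in RMA, where 0.181% of all genes tested were, and DESeq2 also called Wars.

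At later stages Atf4 was not called in the edgeR fit of all libraries. RMA-KR intermediate had 147, 195, 212, 187 and 207, RMA-KR late 154, 170 and 178, RMA intermediate 320, 210 and 257, and RMA late 121, 205 and 262. The RMA-KR late libraries were all below the 4 controls (log2 fold change −0.84 ± 0.23, adjusted p = 0.0906, while DESeq2 called it with an adjusted p of 0.0337 and edgeR limited to genes that reached 10 counts in each library with 0.0426), whereas both RMA groups overlapped with control (−0.19 ± 0.23 and −0.61 ± 0.23). Control 4, one of the libraries with low handling stress genes, had the lowest Atf4 level of the controls. Without those 4 libraries the log2 fold change of RMA-KR early was −1.49 with an adjusted p of 0.0581, and with a term for them it was −1.39 with an adjusted p of 0.0365. With 1 library of the comparison left out, the adjusted p ranged from 0.0462 to 0.194, and only the fit without control 4 stayed below 0.05. The difference between the tumors on day 2 kept an adjusted p of 0.0303 without the 4 libraries, but it was 0.0920 without RMA early 2 and 0.0908 without RMA-KR early 2.

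The stress effectors downstream of ATF4 were low, and none was called. Ddit3, which encodes the C/EBP family factor CHOP, had 21.4, 22.8, 29.1 and 28.9 normalized CPM in control. It had 11.1, 14.9 and 11.3 in RMA intermediate and 14.0, 14.4 and 18.8 in RMA late. Both of these RMA groups thus lay below control without overlap. In RMA intermediate the log2 fold change was −1.04 ± 0.38 (adjusted p = 0.199, edgeR), while DESeq2 gave an adjusted p of 0.0250. The exons of Ddit3 share 68 bases with Mars1 on the opposite strand, and whether counting used the strand is not given in the sources used here, so reads there cannot be assigned. Ddit4, an inhibitor of mTORC1, ranged from 2.43 to 15.3 normalized CPM over the 24 libraries, with the 3 highest values in control 4 (11.5) and RMA-KR intermediate 4 and 5 (14.1 and 15.3), all of them libraries with low handling stress genes. Against 6.53 to 11.5 in control, Ddit4 was lower without overlap in RMA early (5.26 to 6.35), RMA intermediate (4.58 to 6.35) and RMA late (4.00 to 5.07). Of all genes tested, 7.05%, 20.7% and 18% did not overlap with control in RMA early, RMA intermediate and RMA late. Sesn2, a leucine sensor of the same pathway, ranged from 16.1 to 94.4, the highest being RMA-KR late 3. In RMA early Sesn2 had 16.1 to 20.8, below control (23.8 to 40.6) without overlap. Atf5, a related transcription factor, and Trib3, a pseudokinase that restrains ATF4 and CHOP, had 0 to 21 and 0 to 37 counts per library, too few to describe a change.

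**Figure D2:**
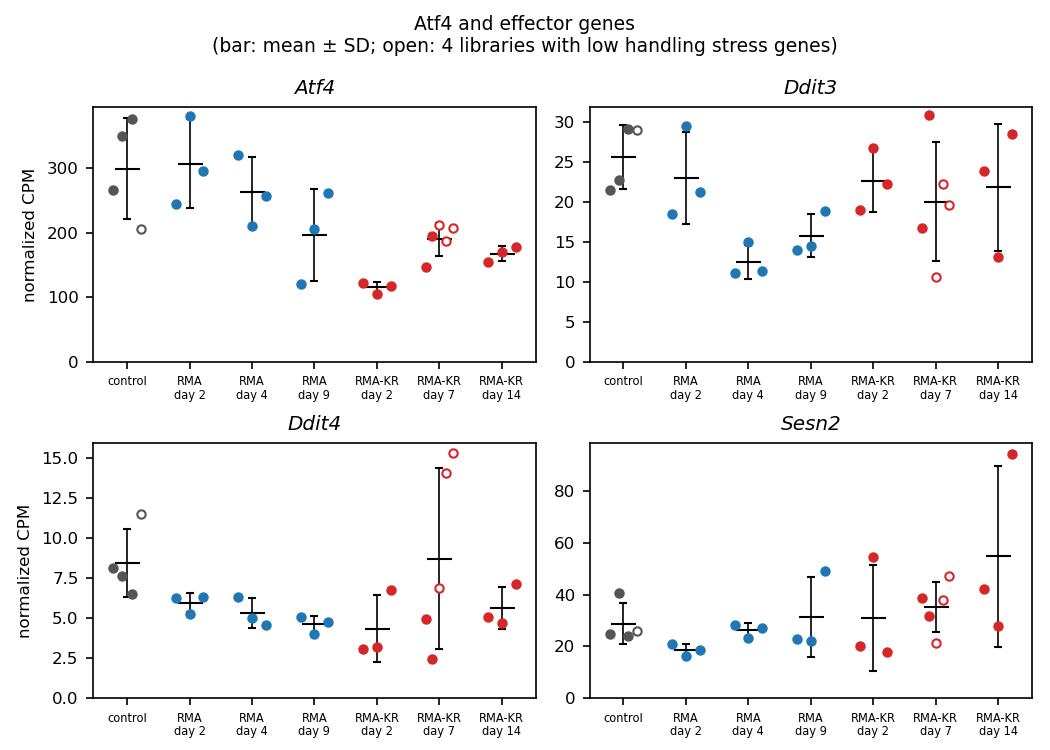
Normalized CPM of Atf4, Ddit3, Ddit4 and Sesn2 in each library by group, with the mean ± SD as bars and open circles for the 4 libraries with low handling stress genes. The 3 RMA-KR libraries of day 2 lie between 106 and 122 for Atf4, below the 4 controls, and the 3 RMA libraries of day 4 lie below the controls for Ddit3.

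Of the 3 serine synthesis enzymes, Psat1 and Phgdh rose and Psph did not pass the test. Phgdh (chr3:98313170-98339990) encodes the first enzyme of the branch that leaves glycolysis, Psat1 (chr19:15904678-15947337) the second and Psph (chr5:129765558-129787449) the last. Psat1 had 49.5, 41.7, 63.1 and 47.8 normalized CPM in control, 177, 253 and 209 in RMA intermediate and 161, 165 and 121 in RMA late. Every library of both RMA groups was above every control, with log2 fold changes of 2.08 ± 0.30 (adjusted p = 0.000356) and 1.56 ± 0.30 (adjusted p = 0.00401, edgeR's quasi-likelihood test). RMA early, at 30.6, 42.3 and 71.6, overlapped with control. In RMA-KR early Psat1 had 25.6, 35.5 and 36.2, lower than in any control, a difference that did not pass the test (−0.64 ± 0.30, adjusted p = 0.567).

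In RMA-KR intermediate Psat1 had 78.8, 74.5, 178, 94.5 and 142 normalized CPM and in RMA-KR late 85.6, 130 and 90.3. All 8 libraries were above the 4 controls, and the log2 fold changes were 1.17 ± 0.27 (adjusted p = 0.357) and 1.01 ± 0.29 (adjusted p = 0.106, edgeR). DESeq2, the tool the authors used on these counts, called both, with adjusted p of 0.0128 and 0.0327 under its default settings. The 3 RMA-KR intermediate libraries with low handling stress genes (178, 94.5 and 142) were all above the other 2, and without them and control 4 the log2 fold change was 0.59 (adjusted p = 0.733), and with a term for them 0.92.

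Phgdh had 21.4, 22.8, 17.4 and 22.6 normalized CPM in control. It rose to 48.6, 89.2 and 66.8 in RMA intermediate (log2 fold change 1.70 ± 0.35, adjusted p = 0.00824) and 65.2, 84.8 and 33.1 in RMA late (1.54 ± 0.35, adjusted p = 0.0151, edgeR), in each case without overlap. The intermediate call was lost without RMA intermediate 2 (adjusted p = 0.0673, edgeR). The late call was lost, for example, without RMA late 2 (adjusted p = 0.169), whereas that of Psat1 held without any single library in both RMA groups. RMA-KR intermediate, at 31.2, 37.3, 57.4, 51.7 and 82.1, and RMA-KR late, at 36.0, 52.8 and 29.2, were likewise above all controls, but the test was not passed (1.30 ± 0.32, adjusted p = 0.390, and 0.90 ± 0.35, adjusted p = 0.274). In RMA-KR intermediate the 3 libraries with low handling stress genes were again the higher ones, and the log2 fold change was 0.75 without them and control 4 and 1.02 with a term. Psph stayed between 26.9 and 76.0 over all libraries, with no comparison in which it was called. It shares 452 exon bases with Cct6a on the opposite strand.

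The one-carbon enzymes take the serine made by that branch. Shmt1 in the cytosol and Shmt2 in mitochondria split it into glycine and a folate-bound carbon, Mthfd2 oxidizes that carbon in mitochondria, and Mthfd1 prepares it in the cytosol for purine and thymidylate synthesis. Mthfd2 (chr6:83305691-83325908) had 7.76, 6.17, 10.95 and 9.64 normalized CPM in control, 35.6, 48.3 and 49.9 in RMA intermediate and 40.0, 52.4 and 28.4 in RMA late. It rose in both RMA groups, by 2.36 ± 0.54 (adjusted p = 0.0162) and 2.22 ± 0.53 (adjusted p = 0.0219, edgeR), without overlap. Each of these calls held in 2 of the 7 fits with 1 library left out, where the adjusted p reached 0.0665 and 0.144. RMA early, at 16.7, 13.3 and 14.5, was also above every control, with 0.78 ± 0.53 (adjusted p = 0.765). RMA-KR late was split, with 6.41 and 12.2 in 2 libraries and 39.9 in the other one. RMA-KR intermediate had 7.08 and 8.46 in replicates 1 and 2, within control, and 15.5, 23.8 and 27.8 in the 3 libraries with low handling stress genes, above control. Without these and control 4, its log2 fold change against control went from 0.93 to −0.078, and with a term for them it was 0.38.

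Mthfd1 (chr12:76255298-76319803) had 42.3, 55.8, 43.1 and 45.7 normalized CPM in control. It rose in RMA intermediate, to 93.8, 227 and 149 (log2 fold change 1.74 ± 0.41, adjusted p = 0.0215, edgeR), and was 95.5, 89.3 and 73.3 in RMA late, again above every control but not called (0.88 ± 0.41, adjusted p = 0.340). With 1 library left out, the adjusted p in RMA intermediate exceeded 0.05 in 6 of the 7 fits (up to 0.151, without RMA intermediate 2). Shmt2 had 53.8 to 131 in control and 154, 240 and 157 in RMA intermediate, without overlap (0.92 ± 0.31, adjusted p = 0.150). Shmt1 had 1.48, 2.60, 3.48 and 6.16 in control and 15.8, 67.3 and 31.5 in RMA intermediate, without overlap and with a wide spread within the group (3.46 ± 0.99, adjusted p = 0.0703, edgeR). DESeq2 called Shmt1 there (adjusted p = 0.00655) and in RMA late (adjusted p = 0.0423). RMA early, at 27.0, 14.8 and 13.0, was above control too (2.39 ± 0.97, adjusted p = 0.703), and edgeR without the filter on low counts called it (adjusted p = 0.0295). The same setting called Shmt1 and Mthfd1 in RMA-KR intermediate, at 2.79 (adjusted p = 0.000548) and 1.23 (adjusted p = 0.0150). For both genes, the libraries of that group with low handling stress genes lay above replicates 1 and 2. In the edgeR fit of all libraries Mthfd1 had an adjusted p of 0.532 there. It was called in 1 of 9 other settings, so neither without the 4 libraries nor with a term for them. With 1 library left out, it was called in 0 of 9 fits.

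Asns, asparagine synthetase and a standard reporter of ATF4 activity, was near the limit of detection. It had 0, 0, 0 and 3 counts in control, 46, 42 and 10 in RMA intermediate, 0, 25 and 0 in RMA late, 0, 63, 81, 1 and 26 in RMA-KR intermediate and 44, 0 and 0 in RMA-KR late. Against a floor of 3 counts in each control library, RMA intermediate was at least 3.12 higher on the log2 scale (adjusted p = 0.287, edgeR, and 0.0356 when only the groups compared were fitted). In RMA-KR intermediate (adjusted p = 0.765, edgeR), replicates 2, 3 and 5 were also above that floor, with 63, 81 and 26 counts, whereas replicates 1 and 4, with 0 and 1, were not. Counts of 40 or more were seen in 5 of the 24 libraries and none in 12, so that detection varied within groups as well as between them.

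**Figure D3:**
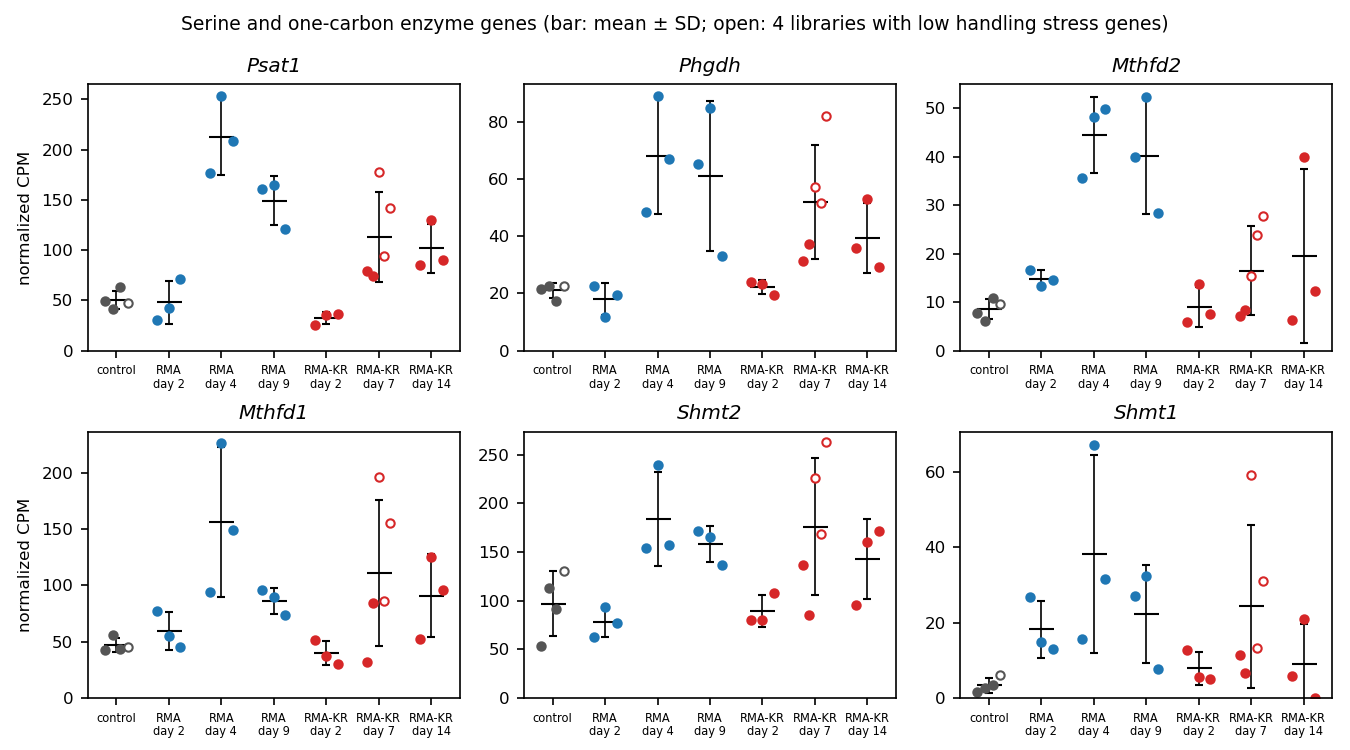
Normalized CPM of Psat1, Phgdh, Mthfd2, Mthfd1, Shmt2 and Shmt1 in each library by group, with the mean ± SD as bars and open circles for the 4 libraries with low handling stress genes. RMA at day 4 and day 9 lies above the controls without overlap for Psat1, Phgdh, Mthfd1 and Mthfd2, and in RMA-KR at day 7 the open circles lie above the filled ones for Psat1, Phgdh, Mthfd1 and Mthfd2.

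Summed over the 7 serine and one-carbon enzymes (all but Asns), the level was 208 to 310 normalized CPM in control, 586 to 976 in RMA intermediate, 452 to 665 in RMA late, 345 to 790 in RMA-KR intermediate and 347 to 598 in RMA-KR late. RMA early (278 to 295) and RMA-KR early (234 to 257) lay within the range of control. Markers of dividing cells moved with these sums. The 12 cycling genes, such as Mki67 and Top2a, of which 9 or more were detected in each library, summed to 498 to 701 normalized CPM in control, 3341 to 4829 in RMA intermediate, 2167 to 4260 in RMA late and 1835 to 3558 in RMA-KR late. In RMA-KR intermediate they summed to 641 and 804 in replicates 1 and 2 and to 960 to 1914 in the 3 libraries with low handling stress genes, and the enzyme sums were 345 to 346 and 500 to 790 in the same libraries. RMA early did not follow the same order, since cycling sums of 391, 1482 and 1131 went with enzyme sums of 278 to 295. In these bulk libraries a larger share of cells that express a gene and more RNA per cell cannot be told apart, and the part of dividing cells in the enzyme results was not tested.

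**Figure D4:**
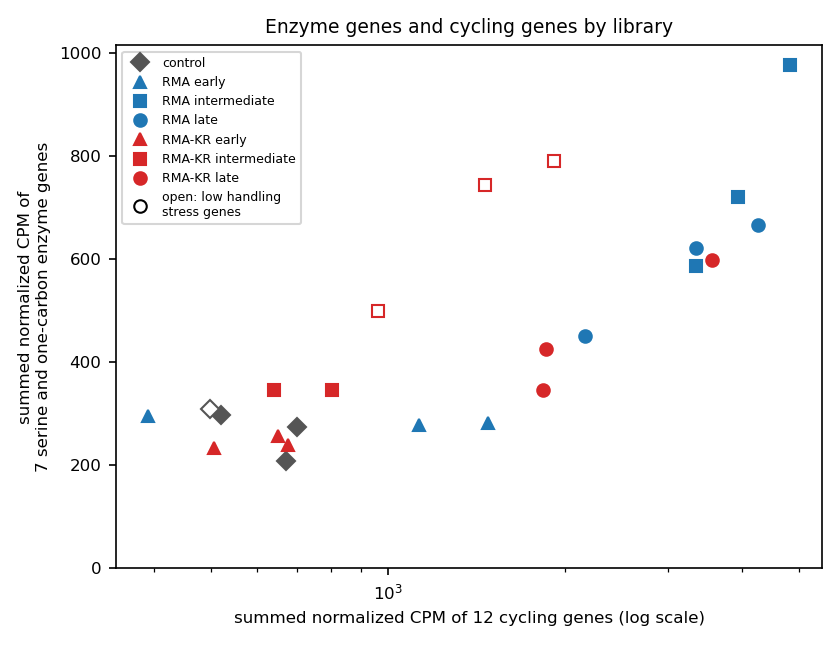
Summed normalized CPM of 7 serine and one-carbon enzyme genes (vertical) against summed normalized CPM of 12 cycling genes (horizontal, log scale), 1 point per library, with shape and color for the group and open symbols for the 4 libraries with low handling stress genes. Control and early libraries lie between 234 and 310 except for 1 control at 208 and RMA intermediate libraries lie between 586 and 976.

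None of the 5 amino acid transporters was called in any comparison against control. At an unadjusted p under 0.05, 2 passed in RMA-KR early and 1 in RMA-KR late, where 8.71% and 14.2% of all genes tested passed. DESeq2 called Slc1a5 in RMA-KR early (log2 fold change 0.60, adjusted p = 0.0323). Slc1a5, which imports glutamine, and Slc3a2, the heavy chain that carries the large neutral amino acid and cystine transporters to the surface, were abundant and were highest in RMA-KR early. Slc1a5 had 246, 175, 261 and 237 normalized CPM in control and 319, 347 and 352 in RMA-KR early, without overlap (0.56 ± 0.16, adjusted p = 0.232, edgeR). Slc3a2 had 264, 287, 261 and 216 in control and 387, 427 and 387 in RMA-KR early, again without overlap (0.64 ± 0.21, adjusted p = 0.334). In the same 3 libraries Atf4 was below every control. In RMA intermediate both genes stayed within the range of control or close to it, with log2 fold changes of 0.01 ± 0.16 and 0.13 ± 0.21 (95% intervals −0.30 to 0.33 and −0.27 to 0.54).

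Slc38a2, a neutral amino acid transporter known to be induced by starvation, ranged from 145 to 420 normalized CPM, and its groups overlapped with control. The light chains that pair with Slc3a2 were scarce. Slc7a5, which imports leucine, had 0 to 17 counts in control, 22, 49 and 18 in RMA intermediate and 0, 24, 113, 57 and 47 in RMA-KR intermediate, with log2 fold changes of 1.93 ± 1.48 and 2.76 ± 1.42 (adjusted p = 0.534 and 0.880, edgeR). Slc7a11, the cystine importer, had at most 56 counts in a library and was at 0 in 2. Slc3a2 was also lowest in the 4 libraries with low handling stress genes, with 216 in control 4 and 181, 153 and 198 in RMA-KR intermediate 3 to 5, against 302 and 353 in RMA-KR intermediate 1 and 2.

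All 18 cytosolic synthetases had a log2 fold change above 0 in RMA intermediate against control, with a median of 0.60, where the median of all genes tested was −0.29. Of them, 2 were called, Gars and Aars, and 10 passed an unadjusted p of 0.05, where 15.9% of all genes tested did. Gars (chr6:55038007-55079500) loads glycine and had 191, 218, 148 and 151 normalized CPM in control and 320, 363 and 341 in RMA intermediate, without overlap (0.95 ± 0.20, adjusted p = 0.00881, edgeR). In RMA late it had 255, 269 and 259, above every control with little spread, but the difference was not called (0.56 ± 0.20, adjusted p = 0.159). The RMA-KR groups overlapped with control, at 194 to 268 in the intermediate and 173 to 220 in the late stage. Without the 4 libraries with low handling stress genes the call in RMA intermediate was at the threshold (0.89, adjusted p = 0.0506).

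Aars loads alanine. It had 104, 84.7, 102 and 109 normalized CPM in control, 174, 219 and 180 in RMA intermediate (0.94 ± 0.21, adjusted p = 0.0165, edgeR) and 112, 185 and 186 in RMA-KR late. RMA-KR late lay above every control (0.69 ± 0.21, adjusted p = 0.140), and DESeq2 called it (adjusted p = 0.0458). Of its annotated exon bases, 1326 (14.3%) are shared with Exosc6 on the same strand, where counting in union mode assigns no read. Leaving out 1 library at a time, Aars kept an adjusted p under 0.05 in 3 of 7 fits and Gars in 5 of 7.

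Vars, the valine enzyme, was the most abundant synthetase in counts and varied widely. It had 230, 262, 175 and 399 normalized CPM in control, 407, 716 and 541 in RMA intermediate and 314, 200, 618, 582 and 747 in RMA-KR intermediate. The latter group was split, with the 3 libraries with low handling stress genes at 582 to 747 and the other 2 at 200 and 314, and the highest control was control 4. RMA intermediate was above control without overlap (1.06 ± 0.35, adjusted p = 0.139), and Vars was called there without the 4 libraries. Rars (0.84, adjusted p = 0.113), Cars (0.74), Kars (0.70) and Mars1 (0.68), of arginine, cysteine, lysine and methionine, followed in RMA intermediate, none of them called in the edgeR fit of all libraries. DESeq2 called Rars (adjusted p = 0.0491), and edgeR on only the groups compared called Rars, Kars and Mars1 (adjusted p = 0.00870, 0.0466 and 0.0460).

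Of the remaining synthetases, Hars was called in RMA intermediate when only the groups compared were fitted (adjusted p = 0.0178), and none in the fit of all libraries. Iars (isoleucine) was 0.82 higher with a standard error of 0.51, and Hars, Lars, Wars, Eprs, Tars, Nars, Dars, Yars, Sars and Qars had log2 fold changes from 0.12 to 0.60. In RMA late 17 of 18 were above 0 with a median of 0.36, and 4 passed an unadjusted p of 0.05, where 14% of all genes tested did. DESeq2 called none of the 18 there, and edgeR on only the groups compared called Rars and Lars (adjusted p = 0.0409 and 0.0314). In RMA-KR intermediate 15 were above 0 with a median of 0.41, and 7 passed an unadjusted p of 0.05, where 5.91% of all genes tested did. In RMA-KR late 13 were above 0 with a median of 0.20, and 5 passed, where 14.2% of all genes tested did. In RMA-KR early 9 were above 0 and 9 below. Wars, of tryptophan, an enzyme known to respond to interferon, had 134, 152, 178 and 129 normalized CPM in control, 96.1, 62.4 and 102 in RMA-KR early and 193, 183 and 164 in RMA early. It was lower in RMA-KR early than in control or RMA early without overlap, and the difference between the tumors was 1.05 ± 0.26 on the log2 scale (adjusted p = 0.0908, edgeR, and 0.0110 with DESeq2).

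**Figure D5:**
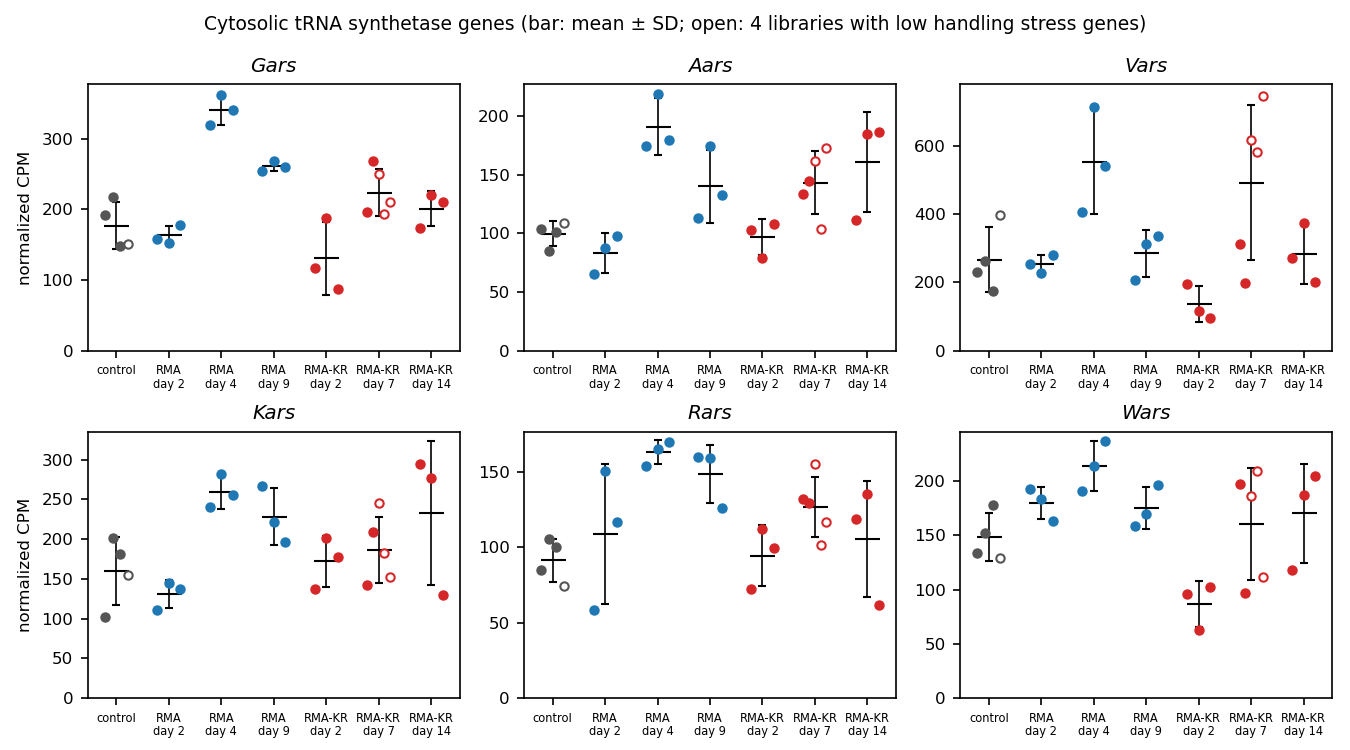
Normalized CPM of Gars, Aars, Vars, Kars, Rars and Wars in each library by group, with the mean ± SD as bars and open circles for the 4 libraries with low handling stress genes. Gars lies between 320 and 363 in RMA at day 4, above all controls, and Wars lies between 62.4 and 102 in RMA-KR at day 2, below all controls.

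Set against each other at the same stage, the 2 tumors differed in few of these genes. On day 2, Atf4 was the only one of 37 called in the edgeR fit of all libraries. Wars was called as well by DESeq2 and by edgeR limited to genes that reached 10 counts in each library (adjusted p = 0.0439). At the intermediate stage none was called, where 0.643% of all genes tested were called in either direction. There, 4 genes passed an unadjusted p of 0.05 (Psat1, Gars, Mthfd2 and Atf4; 14.2% of all genes tested did), all with higher levels in RMA, and DESeq2 called none. Psat1 was 0.91 higher in RMA intermediate than in RMA-KR intermediate (95% interval 0.37 to 1.45, adjusted p = 0.184, edgeR), and it was called when the 4 libraries with low handling stress genes were left out. At the late stage none was called in these libraries (2 at an unadjusted p under 0.05, where 7.31% of all genes tested passed, and none with DESeq2), where 0% of all genes tested were called. The late difference of Psat1 was 0.55 (95% interval −0.07 to 1.17), that of Phgdh 0.63 (−0.10 to 1.37) and that of Mthfd2 1.04 (−0.07 to 2.15). Each of these intervals includes 0 and reaches past a 2-fold higher level in RMA.

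Within each model, the late stage was compared with the early one. Psat1 rose in both, by 1.63 ± 0.32 in RMA (adjusted p = 0.00817) and 1.65 ± 0.32 in RMA-KR (adjusted p = 0.0269, edgeR), with no overlap between early and late libraries in either. Phgdh rose in RMA (1.77 ± 0.39, adjusted p = 0.0146), and in RMA-KR its late libraries (36.0, 52.8 and 29.2) were above the early ones (24.02, 23.4 and 19.3) without passing the test (0.82 ± 0.38, adjusted p = 0.318). Thus 2 of 37 genes rose in RMA, where 2.18% of all genes tested rose and 0.696% fell, and 1 rose in RMA-KR, where 0.287% rose and 0.105% fell, and no gene of the 37 fell in either. With 1 library left out, Psat1 stayed called in 5 of 6 fits in RMA and 3 of 6 in RMA-KR, and Phgdh in 3 of 6 in RMA. The medians over the 37 genes were 0.36 in RMA and 0.37 in RMA-KR, against −0.05 and −0.10 over all genes tested (0.41 in RMA-KR with genes at the floor of 3 counts set to their bound). The difference between the models in this change was not called for any gene of the 37, nor for any gene tested (0%). At an unadjusted p under 0.05, 3 of the 37 passed (Atf4, Wars and Lars), where 10.4% of all genes tested did, and DESeq2 called none. For Psat1 it was 0.02 (95% interval −0.85 to 0.90). For Atf4 it was 1.19 ± 0.35 (adjusted p = 0.336), with late against early differences of −0.65 in RMA and 0.54 in RMA-KR, neither of which was called.

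Other genes of the pathway were listed by 8 roles, of which 108 were found and 102 tested. In RMA intermediate 6 rose and 1 fell, where 1.85% of all genes tested rose and 0.491% fell, and DESeq2 called 10 (955 of 45237 genes). Eif2s1, which encodes eIF2α itself, rose by 0.83 ± 0.19 (adjusted p = 0.0189), Tyms, the thymidylate synthase that consumes one-carbon units, by 2.57 ± 0.52 (adjusted p = 0.00765), and Mthfd1l, the mitochondrial partner of Mthfd2, by 1.18 ± 0.30 (adjusted p = 0.0385, edgeR). Got2, the mitochondrial aspartate aminotransferase, rose by 1.06, Sdf2l1, a chaperone cofactor of the endoplasmic reticulum, by 1.35, and Myc by 1.20. Sesn1, a relative of Sesn2, fell by 0.93. In RMA late Eif2s1, Myc and Tyms rose, 3 of 102 where 2.14% of all genes tested rose, and DESeq2 called 6 (1054 of 45237 genes). In RMA-KR late, 0.889% of all genes tested rose, 0.328% fell and DESeq2 called 4 of the 102 (663 of 45237 genes). There Myc (1.13 ± 0.22), Tyms (2.13 ± 0.51) and the eIF2α kinase Eif2ak2 (1.98 ± 0.47), known as an interferon-induced gene, rose while Tsc2, an inhibitor of mTORC1, fell by 1.13. Eif2ak2 had 45.0, 51.6 and 126 normalized CPM there. Without a call, Eif2ak2 was also above every control in RMA intermediate (1.63 ± 0.47, adjusted p = 0.0693) and RMA late (1.44 ± 0.47, adjusted p = 0.114, edgeR). Tsc2 likewise lay below every control in RMA late (−0.63 ± 0.24) and RMA-KR early (−0.54 ± 0.24), again without a call. Myc was thus called in 3 of the 6 groups, with 57.5, 91.5, 75.0 and 63.0 normalized CPM in control and 144, 178 and 171 in RMA intermediate. Without a call, Myc was above every control in RMA-KR early too (0.62 ± 0.22, adjusted p = 0.425, edgeR). In RMA-KR intermediate it was 0.67 ± 0.20 higher (adjusted p = 0.530, edgeR), with overlap.

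In the 3 remaining comparisons with control none of the 102 was called by edgeR. At an unadjusted p under 0.05 there were 11 in RMA early, 13 in RMA-KR early and 11 in RMA-KR intermediate, of 102, where 7.04%, 8.71% and 5.91% of all genes tested passed, and DESeq2 called 1, 0 and 0. Of 45237 genes, DESeq2 called 76, 212 and 41 in the same order. The other eIF2α kinases were not called in any comparison with control. Eif2ak3, the kinase of the endoplasmic reticulum, had 15.4 to 25.5 normalized CPM in control and 8.03 to 16.5 in RMA intermediate. Ppp1r15a, which restores eIF2α by dephosphorylation, had 404, 479, 625 and 59.5 in control, the low value being control 4, and 71.3, 76.8 and 77.9 in RMA-KR intermediate 3 to 5. Its level thus moved with the handling stress genes. Control 4 lay within the range of the other controls for Psat1, Phgdh, Mthfd1 and Mthfd2 and was the highest control for Shmt1, Shmt2 and Vars, and RMA-KR intermediate 3 to 5 lay above replicates 1 and 2 for all of these genes.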

How the data were processed

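RNA-seq counts of 24 splenic NK cell libraries were analyzed. Per the labels and the methods of the study, NK cells were sorted, libraries were made with a Lexogen mRNA-seq kit and read single-end. The authors then trimmed adapters (cutadapt 1.10), removed ribosomal reads (Bowtie2 2.2.8), aligned to mm10 (STAR 2.5.3a) and counted reads per gene (HTSeq 0.6.1p1, union mode). The deposited count table was used as raw counts in 24 of its 112 columns. A further 48 columns of per-library values and the columns with results of the authors' tests (fold changes and p-values from DESeq2 1.16.1) were not used. The gene length column was not used for tests.

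Groups followed the labels. Genes were filtered with filterByExpr, libraries scaled by TMM, and 12 comparisons tested with edgeR 4.0.16 (R 4.3.3) by the quasi-likelihood method with robust dispersion and Benjamini-Hochberg adjustment. A gene was called at an adjusted p under 0.05. Standard errors were derived from the fold change and its F statistic, and 95% intervals from the standard errors. Levels per kilobase used annotated exon bases. On simulated counts for RMA intermediate against control, with 17097 genes, 55 of 100 genes changed 4-fold and 11 of 100 changed 2-fold were called. The changed genes were drawn at random from all but the least abundant genes, so these shares are not those of the genes described here. A library with 3 counts or fewer was taken to be at the floor, and counting error is the only error that floor covers.

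The 38 genes, the pathway and marker lists and the tests were chosen with earlier results of these data known. A set of 14 genes was named by rule (those called in any comparison, in each role the gene with the smallest p against control and the most abundant one, and always Atf4, Ddit3, Asns, Slc7a5 and Slc3a2), and other genes given with values were chosen after their values were seen. Alternatives were another scaling, DESeq2 1.42.0 (default settings and betaPrior, as in the study), no filter or 10 counts in every library, a replicate block, only the groups compared, an added 2-fold limit and leaving out each library. Leaving out the 4 libraries with low handling stress genes, and a term for them, were added after seeing the data. Replicate numbers did not pair the libraries. A further sequence stretch, beyond those printed, is not reported here.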

Additional observations from a re-analysis of the deposited data

Results flagged for a closer look

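Asns in control 4 had 0.268 normalized CPM, from 3 counts, while the other 3 control libraries had 0, so that the whole range of the group came from this library. All 4 libraries are at or under the floor of 3 counts, so these counts do not set it apart. Among 28 groups checked in this way, chance alone marks about 1 in 20.

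Atf4 differed between the tumors on day 2, with a log2 fold change of RMA early over RMA-KR early of 1.41 (adjusted p = 0.0187, edgeR's quasi-likelihood test). The 3 RMA early libraries lay at 245 to 381 normalized CPM, overlapping with control, and the 3 RMA-KR early libraries at 106 to 122.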

How the results depend on the processing

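Psat1 in RMA intermediate and RMA late was called in all 9 other settings and without any single library. The number of the 37 genes called moved as follows, and the cause was not tested. With DESeq2 (default settings and betaPrior) it was 9 in RMA intermediate (Ddit3 lower among them), 4 and 3 in RMA late, 2 in RMA-KR early, 2 in RMA-KR intermediate, 3 and 4 in RMA-KR late, 2 in RMA early against RMA-KR early and 3 in RMA-KR late against early. Of 45237 genes, these settings called 955 and 889 in RMA intermediate and 1054 and 990 in RMA late. They called 212 and 167 in RMA-KR early, 41 and 36 in RMA-KR intermediate and 663 and 580 in RMA-KR late. They called 437 and 328 in RMA early against RMA-KR early and 609 and 449 in RMA-KR late against early. With no filter the number of the 37 was 7 in RMA intermediate, 4 in RMA late, 3 in RMA late against early, 1 in RMA early, 2 in RMA-KR early, 4 in RMA-KR intermediate, 1 in RMA-KR late and 3 in RMA-KR late against early. Of 45237 genes, that setting called 564, 574, 613 and 91 in the RMA comparisons, in the same order. In those of RMA-KR it called 138, 79, 458 and 366. With 10 counts in every library the number of the 37 was 1 in RMA-KR late and 2 in RMA early against RMA-KR early. Of 7800 genes, 300 and 100 were called there. With only the groups compared the number of the 37 was 14 in RMA intermediate and 7 in RMA late, where 1246 of 12191 and 811 of 12490 genes were called. It was 0 in RMA-KR early and in RMA early against RMA-KR early, where 8 of 12871 and 0 of 11926 genes were called. It was also 0 in late against early, where 1 of 11493 genes was called in RMA and 2 of 11934 in RMA-KR. Without the 4 libraries with low handling stress genes the number of the 37 was 0 in RMA-KR early and 1 in RMA intermediate against RMA-KR intermediate. Of 17958 genes, 2 and 90 were called there. In this setting the log2 fold change changed sign for Mthfd2 in RMA-KR intermediate (−0.078) and for Atf4 in RMA early against control (−0.054).

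With the replicate number as a block, 0 genes were called in RMA-KR early, Atf4 in RMA early changed sign (−0.017), and Mthfd1 in RMA intermediate lost its call (adjusted p = 0.0697). Over 64 pairs of libraries with the same number the median correlation of deviations was −0.007, with 3 pairs above 0.1, and 5 of 23 libraries correlated best with their own number, so they share only a number. Leaving out 1 library gave 2 to 6 genes called in RMA intermediate (2 without RMA intermediate 2, 3 without any 1 control), 1 to 3 in RMA late (1 without RMA late 1 or 2), 0 to 1 in RMA-KR early, 0 to 1 in RMA early against RMA-KR early, 1 to 2 in RMA late against early and 0 to 1 in RMA-KR late against early (0 without RMA-KR early 1 or 2 or RMA-KR late 2). Over all genes tested these fits called 191 to 277 in RMA intermediate, 143 to 581 in RMA late and 0 to 13 in RMA-KR early. They called 8 to 198 in RMA early against RMA-KR early, 92 to 653 in RMA late against early and 14 to 57 in RMA-KR late against early. Atf4 in RMA early ranged from −0.13 to 0.20. With a 2-fold limit added, Gars and Aars were no longer called in RMA intermediate, which left 4 genes. In the comparison simulated, RMA intermediate against control, 11 of 100 genes changed 2-fold were called.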
